A study of Mus musculus with 48 samples.

Results

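Single mouse embryos at the 2-cell stage differ in how much RNA of the Zscan4 cluster they hold, and the embryos with the most and the least of it were compared here across all other genes. The study measured 48 embryos of strain C57BL6, 24 of them WT and 24 carrying K49A, the amino acid substitution in protamine 1 that its title names. Every embryo was collected 26 to 28 hours after fertilization and sequenced alone. The parent that passed on the substitution is not named in the labels, nor is it said whether embryos are from the same mating. The word "dot" in the titles of K49A 22, 23 and 24 is not explained in the labels. Libraries with at least 1000000 counts and 12000 genes above 0 were kept, which left 24 of 48 (10 WT and 14 K49A). Each library was scored by the mean log2(CPM + 1) of Zscan4c and Zscan4d, CPM being a count divided by the library total and multiplied by 1000000. The 8 highest libraries are called Zscan4-high and the 8 lowest Zscan4-low, so both groups were chosen by measured values. The group names therefore describe RNA level and no treatment. The high group held 7 WT embryos and 1 K49A embryo and the low group 2 WT and 6 K49A, and the 8 libraries between them were 1 WT and 7 K49A.

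Zscan4 genes encode zinc finger proteins with a SCAN domain that lie in a cluster of near-identical copies on mouse chromosome 7. They are transcribed in a burst at the 2-cell stage, together with other genes and repeats of zygotic genome activation, when the embryo begins its own transcription and degrades the RNA stored in the oocyte. In cultured mouse embryonic stem cells the same genes mark a transient 2-cell-like state, and Dppa2, Dppa4 and Dux act upstream of them there. Ribosome production, replication and division of the blastomeres proceed over the same hours.

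The promoters of the genes that gave the score are shown because they are close copies of each other. Both are RefSeq sequences of build GRCm38.p6 that run 5′ to 3′ from 250 bases before to 50 bases after the annotated start (Zscan4c at chr7:11005495-11005794, plus strand; Zscan4d at chr7:11166099-11166398, minus strand). Capitals mark the bases at which the 2 sequences differ once shifted by 11 bases.
Zscan4c: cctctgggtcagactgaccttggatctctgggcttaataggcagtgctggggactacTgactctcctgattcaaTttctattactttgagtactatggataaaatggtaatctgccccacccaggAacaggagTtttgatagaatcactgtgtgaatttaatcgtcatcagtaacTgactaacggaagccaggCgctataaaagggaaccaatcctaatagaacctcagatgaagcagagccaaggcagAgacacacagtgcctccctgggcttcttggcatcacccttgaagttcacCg
Zscan4d: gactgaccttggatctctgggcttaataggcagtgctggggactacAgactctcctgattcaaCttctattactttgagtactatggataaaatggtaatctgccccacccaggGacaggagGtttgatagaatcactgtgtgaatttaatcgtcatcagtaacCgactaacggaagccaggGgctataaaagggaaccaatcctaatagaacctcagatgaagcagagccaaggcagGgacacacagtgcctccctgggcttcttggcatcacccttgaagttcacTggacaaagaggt
Over the 289 bases they share, 281 were identical (97.2%). Zscan4c matched Zscan4f at 275 of 277 bases. Reads from such copies cannot always be told apart, so the levels of single family members are uncertain, while their sum is less so.

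The score ran from 8.27 in WT 22 to 0.142 in K49A 4. Zscan4c was between 90.9 and 319 CPM in the high group (median 190) and between 0 and 23.5 CPM in the low group (median 13.7). Zscan4d was between 131 and 326 CPM in the high group (median 264) and between 0.218 and 31.6 CPM in the low group (median 10.2). The last library inside the high group was WT 15 at 7.18, and the first outside it was K49A 11 at 7.15. At the lower boundary K49A 24 stood outside at 5.08 and K49A 6 inside at 4.82. The 8 libraries between the groups fill the range from 5.08 to 7.15, so the boundaries cut a continuous range. The other 7 Zscan4 rows, among them pseudogenes, were left out of every test below. All 9 rows together took 0.0745% to 0.154% of counts in the high group and 0.000196% to 0.0134% in the low group. Scores from the sum of all Zscan4 rows chose the same 8 and 8 libraries, and scores from TPM kept 7 of the 8 high and all 8 low libraries.

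**Figure D1:**
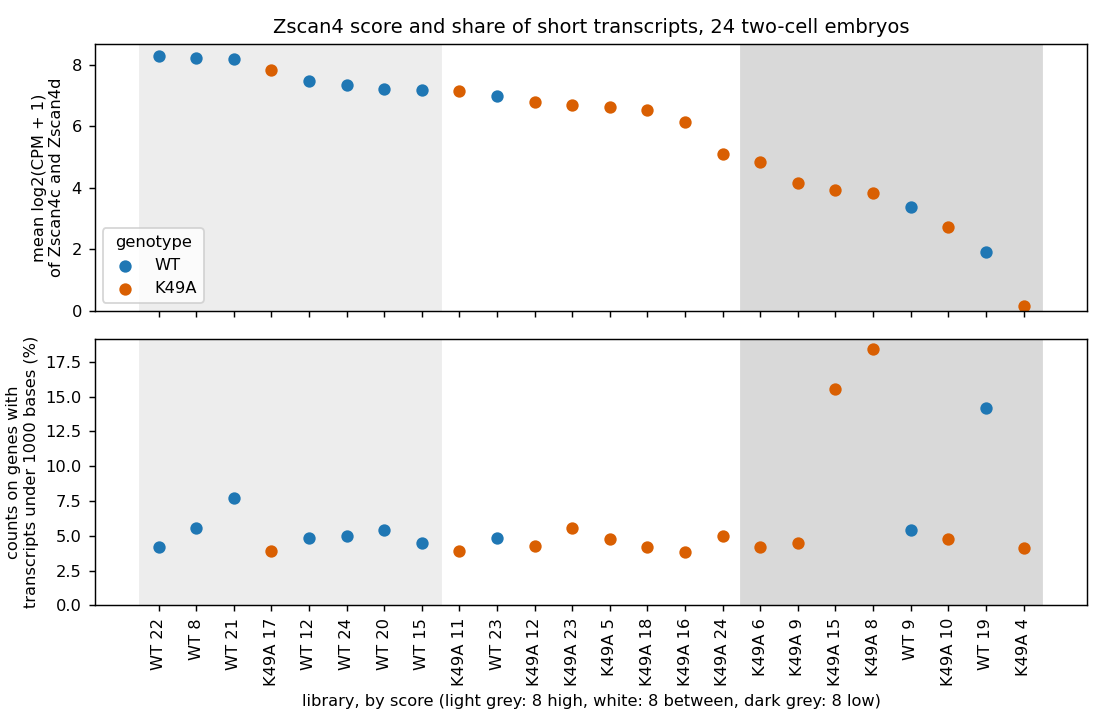
Zscan4 score (upper panel) and percent of counts on genes whose longest transcript is under 1000 bases (lower panel) for each of the 24 libraries, ordered by score, with WT in blue and K49A in orange. The 3 libraries between 14.2% and 18.4% in the lower panel are all in the low group, and the other 21 lie between 3.85% and 7.74%.

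The 24 libraries held 1544253 to 5309505 counts and 14727 to 20017 genes above 0. The mean log10 total was 0.109 higher in the high group (2-sided exact permutation test, p = 0.186, n = 8 and 8). On average 698 more genes were detected there (p = 0.367, same exact test). With 8 libraries per group, such p-values do not show that the groups are alike in depth. The mean share of counts on genes with transcripts under 1000 bases was 5.14% in the high group and 8.89% in the low group. That difference had p = 0.164 in the same exact test, and 3 low libraries stood apart. Fits that include this share, library totals or plate columns are given below, and causes were not tested. K49A 15, K49A 8 and WT 19, the shallowest libraries of all 24, had 15.6%, 18.4% and 14.2% of counts on genes with transcripts under 1000 bases. Counts of calls are therefore given over all 24 libraries and over the 21 without those 3. The low libraries came mostly from plate columns 1 to 4 and the libraries between the groups from columns 4 to 6. Genotype is uneven between the groups, so WT/K49A was a covariate in the fits. The WT libraries lay in plate rows 2 to 4 and the K49A libraries in rows 5 to 8, so genotype and plate row cannot be told apart. Of 13 tested cumulus and granulosa cell markers, 8 blood cell markers and 5 sperm markers, none changed with the score over the 24 libraries. The summed cumulus markers were at 168 to 394 CPM in the high group and 131 to 776 CPM in the low group, and Amhr2 of that list rose over the 21 other libraries. The summed blood markers were at 16.04 to 155 CPM and 9.78 to 373 CPM, with Hbb-bs, Hbb-bt, S100a8, S100a9 and Tyrobp at 0 in all 24 libraries. The summed sperm markers were at 68.1 to 137 CPM and 61.3 to 108 CPM, with Akap4, Gapdhs, Prm3 and Smcp at 0.

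The direct comparison of the 8 high with the 8 low embryos tested 15444 genes and called 1, Gm11758, which is 0.00648% of them (edgeR's quasi-likelihood test, Benjamini-Hochberg adjusted p = 0.00949). At an unadjusted p under 0.05, 771 genes (4.99%) were higher and 933 (6.04%) lower. By DESeq2 the counts were 124 higher and 135 lower, and by limma on weighted libraries 67 and 22. Leaving out 1 library gave 0 calls without K49A 17, WT 9 or WT 19 and 4 without K49A 9. Gm11758 (chr4:73872219-73876266, minus strand, GRCm38) held 939 to 3814 counts in 6 high libraries, 1 count in each of WT 24 and WT 15, and 0 or 1 count in all low libraries. The libraries between the groups split in the same way, with 865 to 1337 counts in 3 of them and 0 to 2 in the other 5. Its transcripts share at least 89.2% of their 31-base words with those of Gm13871, Gm11757 and Gm11756, also on chromosome 4. Summed over the 4 genes, the level was 431 to 2934 CPM in the high group and 147 to 1521 CPM in the low group, which overlap. How estimated counts were divided among these copies cannot be told apart here from a change of the 1 gene.

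The other genes with the smallest p in that comparison did not pass the adjustment (each adjusted p = 0.325) and are given as values. Cpsf6, a subunit of the complex that cleaves and polyadenylates pre-mRNA, was at 64.7 to 249 CPM in the high group (median 196) and at 7.43 to 109 CPM in the low group (median 24.7). The second highest low library was at 27.2 CPM, so the groups overlap through K49A 9 alone. Uap1, Pramef6, Pramef25 and Sord had log2 differences of 2.39 ± 0.54, 4.83 ± 1.12, 3.39 ± 0.84 and 2.72 ± 0.68 (± SE). On the lower side, Copz2, a subunit of the coat of Golgi vesicles, was at 2.49 to 10.01 CPM in the high group and 15.5 to 83.8 CPM in the low group, which do not overlap. Every low library lay above every high one for 4 of the 13604 genes tested over 24 libraries below. Sh3bgrl3, Npm2, Rgs17, Slc4a8 and Dpysl3 had log2 differences of -2.40 ± 0.58, -2.25 ± 0.56, -1.80 ± 0.46, -2.12 ± 0.54 and -1.76 ± 0.46.

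Because the score is continuous, the same model was also fitted with the score itself over all 24 libraries and WT/K49A as covariate. That fit had been listed as an alternative to the comparison of 8 with 8 and is described at length because the latter called 1 gene. Its changes are given across the distance between the mean scores of the high and low groups, 4.61 score units, and p-values below are adjusted over its 13604 tested genes. It called 814 genes higher (5.98%) and 674 lower (4.95%). Without the 3 libraries rich in short transcripts it called 563 higher (4.14%) and 107 lower (0.787%) of the same 13604. Without WT 19 alone the counts were 268 and 16, and without K49A 4 alone 542 and 781. Called in both were 332 higher genes, 40.8% of the first list and 59.0% of the second, and 50 lower genes, 7.42% of the first and 46.7% of the second. All 814 higher genes kept their sign in the 21 libraries, as did 669 of the 674 lower genes. The 21 are part of the 24 that gave the calls, so kept signs are no separate check. The genes called lower over 24 libraries had a median longest transcript of 1647 bases and those called higher of 2816, against 3060 over all tested genes with a length. Over the 21 libraries the lower genes had a median of 2515. With plate column as a factor, 2 genes were called higher, Usp17le and Obox3-ps5, and none lower (edgeR, 1523 genes at an unadjusted p under 0.05); the cause was not tested. All 814 higher genes and 671 of the 674 lower genes had the same sign in that fit. It used the same 24 libraries, so this is no separate check either. Without the 3 libraries and with plate column, 95 genes were called higher and 1 lower.

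**Figure D2:**
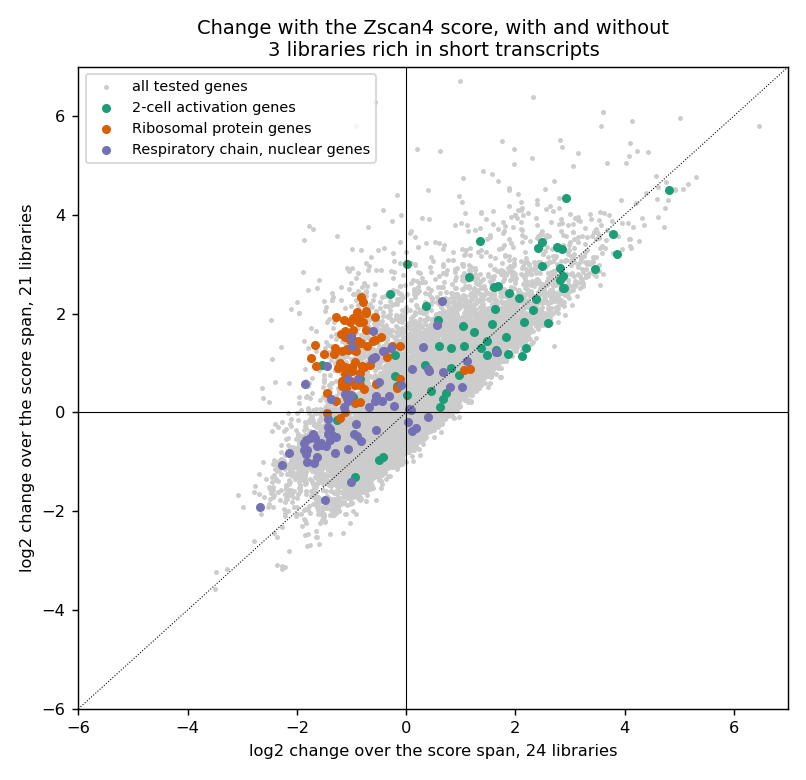
Log2 change of each tested gene across the score span over 24 libraries (horizontal) and over 21 libraries without the 3 rich in short transcripts (vertical), with 3 gene lists in colour and the dotted line at equality. Of the 79 ribosomal protein genes 2 were positive over 24 libraries and 77 over 21, and of the 64 2-cell activation genes 52 and 60; 3 genes fall outside the axes.

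The 12 named genes with the largest rise came from several processes. Usp17le and Usp17lb are deubiquitinase genes of a multicopy family on chromosome 7 whose RNA is known to be high in 2-cell embryos. Usp17le (chr7:104768049-104777470, minus strand) was at 10.6 to 57.2 CPM in the high group (median 23.2), 7.73 to 37.8 CPM between the groups and 0 to 12.7 CPM in the low group (median 0.635). It rose by 4.82 ± 0.71 on the log2 scale, or 28.3-fold (± SE, adjusted p = 0.000719), by 4.50 over 21 libraries (adjusted p = 0.00587) and by 5.47 once plate column was fitted (adjusted p = 0.0309). Usp17lb (chr7:104840257-104842603, minus strand) was at 124 to 511 CPM in the high group (median 244) and 0 to 116 CPM in the low group (median 24.9). Every high library lay above every low one, as for 23 of the 13604 tested genes, and the change was 3.86 ± 0.78 (adjusted p = 0.00546). Arg1, which splits arginine into ornithine and urea, was at 18.5 to 163 CPM in the high group and 0 to 23.5 CPM in the low group and rose by 3.78 ± 0.70 (adjusted p = 0.00343) and by 3.57 over 21 libraries. Bop1 and Nle1, both needed to mature the large ribosomal subunit, rose by 3.58 ± 1.00 and 3.94 ± 0.94. Fam83d, a spindle protein, rose by 3.53 ± 0.66, from a low-group median of 13.5 CPM to a high-group median of 154 CPM, and by 3.59 over 21 libraries. Tedc1, known from centriole assembly, and Trub2, a pseudouridine synthase of mitochondria, rose by 3.53 ± 0.77 and 3.96 ± 1.05. Kank4, Hmcn1, Lctl and Frrs1 rose by 3.94 to 4.32. Of these 12, 9 were also called over 21 libraries, 1 with plate column as a factor and 3 over the K49A libraries alone. All 12 were positive in each of those fits, which reuse libraries of the 24 that chose the genes. The median change of the 12 was 3.94 over 24 libraries and 3.64 with plate column, where the adjusted p ran from 0.0309 to 0.455 (edgeR).

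**Figure D3:**
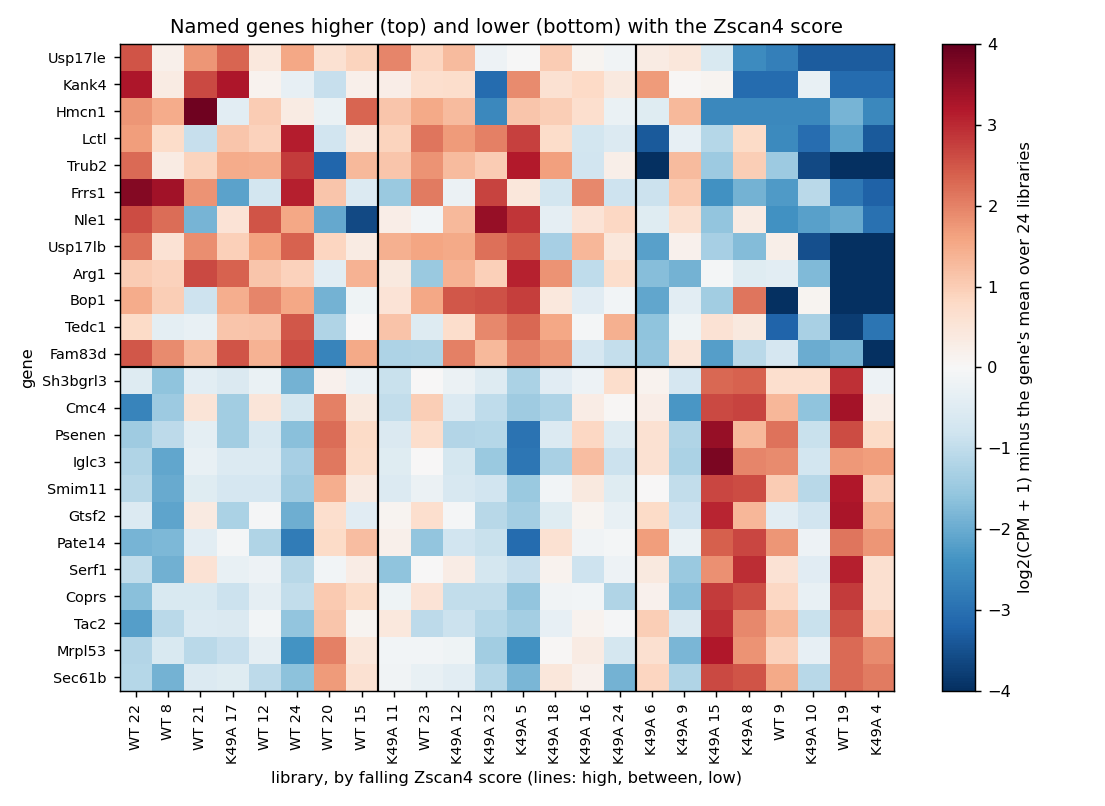
Level of the 12 named genes called higher (top) and the 12 called lower (bottom) over the 24 libraries, ordered by falling score, as log2(CPM + 1) minus the gene's mean over the 24 libraries. K49A 15, K49A 8 and WT 19, the libraries rich in short transcripts, lie above the mean for all 12 lower genes, and WT 20 in the high group lies above it for most of them.

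The 12 named genes with the largest fall were Cmc4, Psenen, Iglc3, Smim11, Gtsf2, Pate14, Serf1, Coprs, Sh3bgrl3, Tac2, Mrpl53 and Sec61b, by 2.20 to 2.61 on the log2 scale. Psenen encodes a subunit of gamma-secretase, Sec61b a subunit of the channel for proteins entering the endoplasmic reticulum and Mrpl53 a protein of the mitochondrial ribosome. Coprs was at 11.1 to 78.7 CPM in the high group and 11.1 to 268 CPM in the low group. Its median was 264 CPM in the 3 libraries rich in short transcripts and 42.6 CPM in the other 5 low libraries, against 24.3 CPM in the high group. Over the 21 libraries none of the 12 was called (edgeR, adjusted p = 0.0573 to 0.310), with changes of -1.77 to -0.80. The falls were smaller without the 3 libraries, and the part of library composition in them was not tested.

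Counts for this list and those below are read against the shares over all tested genes. These were 5.98% higher and 4.95% lower over 24 libraries, and 4.14% and 0.787% over 21. Genes of zygotic activation made up the list with the highest median change. Of 64 tested 2-cell activation genes, 24 rose with the score and none fell, and the median change was 1.49 against -0.016 over all tested genes. Over the 21 libraries 20 rose and none fell (median 1.69), and 15 rose in both. With plate column as a factor over 24 libraries, 1 of the 64 was called, Usp17le (median of the list 1.68). No member of the other lists was called in that fit. Gm8994 (chr6:136327539-136329983, plus strand) was at 35.0 to 694 CPM in the high group (median 250) and 10.3 to 96.6 CPM in the low group (median 29.4). It rose by 2.82 ± 0.42 (adjusted p = 0.000871) and by 2.68 over 21 libraries. Gm13078 and BC080695 rose by 2.88 ± 0.51 and 2.89 ± 0.52. Usp17la, Usp17lb, Usp17lc, Usp17ld, Usp17le, Trim43b and Trim43c were called in both fits. Zfp352, at a median of 331 CPM in the high group and 72.6 CPM in the low group, did not pass (1.64 ± 0.60, adjusted p = 0.0777). Many of these genes are members of multicopy families, whose counts may be divided among copies. Fewer cells expressing a gene and less RNA per cell cannot be told apart in whole embryos.

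The family's known regulators did not all move with it. Of 24 tested regulators and partners, 5 rose and none fell (median 0.28), and 4 rose over 21 libraries, all 4 among the 5. Dppa4 (chr16:48283733-48294237) and its neighbour Dppa2 (chr16:48303908-48319723) encode a pair of chromatin proteins that act together in embryonic stem cells. Dppa4 was at 52.1 to 449 CPM in the high group (median 307) and 1.40 to 159 CPM in the low group (median 90.2), with a change of 1.94 ± 0.51 (adjusted p = 0.0167). Dppa2 was at 82.3 to 261 CPM and 23.2 to 126 CPM, with a change of 1.33 ± 0.31 (adjusted p = 0.00981). The groups overlapped for both genes. Trim28, the corepressor recruited by zinc finger proteins, and Zfp42, a zinc finger protein also called Rex1, rose by 1.93 ± 0.46 and 2.29 ± 0.63. Tbrg1 rose by 2.53 ± 0.70 over 24 libraries and had an adjusted p of 0.0958 over 21. Dux, annotated as Duxf3, the homeobox activator of 2-cell genes, was near the limit of detection at 0.707 to 9.52 CPM in the high group and 0 to 14.8 CPM in the low group (-0.93 ± 0.60, adjusted p = 0.355). The other 18 not called were Uhrf1, Chaf1a, Chaf1b, Dnmt1, Ehmt2, Setdb1, Mdm2, Zmym2, Usp7, Smchd1, Pcgf6, Nelfa, Rbbp7, Rif1, Kdm1a, Tet2, Lin28a and Obox5, with changes of -1.02 to 1.198.

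Among 8 tested Obox genes, which encode homeobox proteins of the oocyte and early embryo, Obox3, Obox6 and Obox8 rose in both fits. Obox6 (chr7:15833241-15839678, minus strand) was at 132 to 1223 CPM in the high group (median 620) and 0.839 to 470 CPM in the low group (median 132), a change of 2.85 ± 0.59 (adjusted p = 0.00593) and of 2.41 over 21 libraries. Obox3 changed by 2.10 ± 0.59 over 24 libraries and 4.10 over 21. Obox7 fell over the 21 libraries, and the list's median was -0.62 over 24 libraries and 0.58 over 21. Of 17 tested oogenesin and Pramel genes, 6 rose and none fell over 24 libraries, and 2 of the 6, Pramef25 and Pramel5, rose over 21. The other 4 had changes over 21 libraries of about the same size but missed the threshold: Pramel4 2.26 (2.08 over 24), Pramel6 1.83 (2.16), Pramel7 2.29 (2.38) and Pramef6 2.41 (2.85). Pramef25 was at 20.7 to 207 CPM in the high group and 1.97 to 41.2 CPM in the low group, a change of 3.24 ± 0.56 (adjusted p = 0.00253). Tcl1b1 and Tcl1b3 of the Tcl1 cluster, which are abundant in early embryos, fell by 1.28 ± 0.37 and by 1.11 ± 0.35, and neither was called over 21 libraries.

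**Figure D4:**
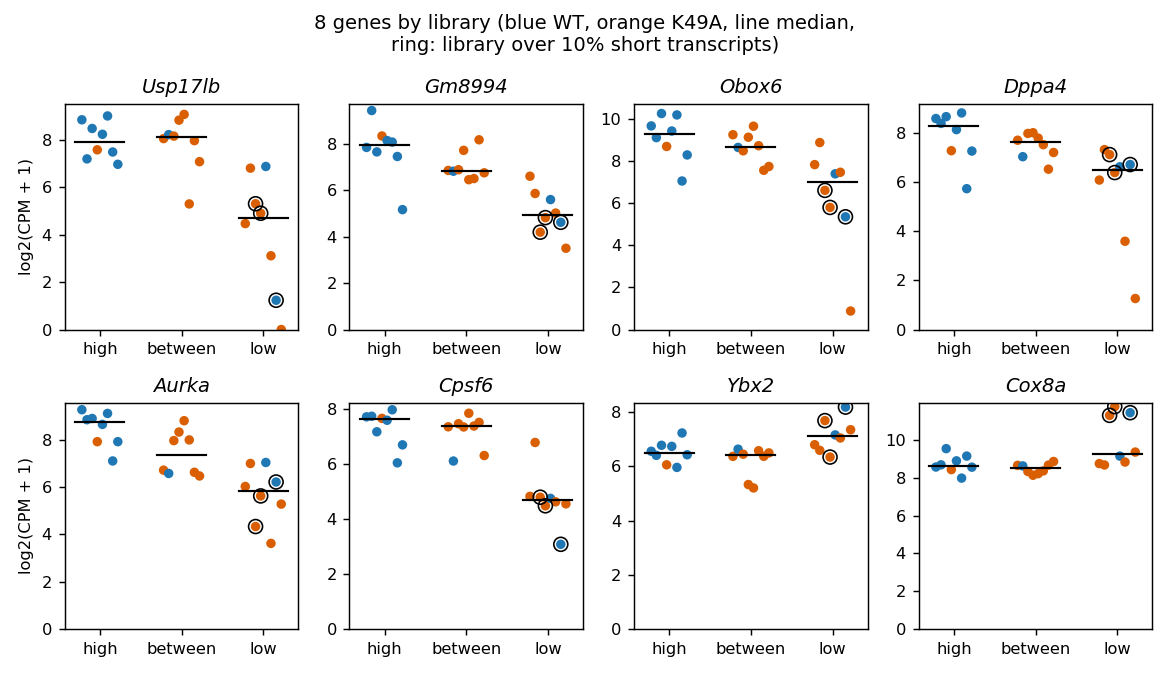
Level of 8 genes in each library as log2(CPM + 1), by group, with WT in blue, K49A in orange, a line at the median of the group and a ring around the 3 libraries rich in short transcripts. Usp17lb and Aurka do not overlap between high and low groups, as for 23 of 13604 tested genes with the high group above. Cox8a is highest in the ringed libraries.

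The promoters of Chit1, Obox3 and Gm21761 are examples picked because they hold motifs of factors that act at this stage. Capitals mark GGATTA, the core bound by Obox and Otx homeodomains, or its complement TAATCC, and GATTNAATC, a core of the Dux site, all searched on both strands; GGATTA and GATTNAATC can overlap. Chit1 and Obox3 rose in both fits, and Gm21761 over the 21 libraries alone. The sequences are from RefSeq, GRCm38.p6, 5′ to 3′ (Chit1 at chr1:134110992-134111291, plus strand; Obox3 at chr7:15639728-15640027, minus strand; Gm21761 at chr13:119913419-119913718, minus strand).
Chit1: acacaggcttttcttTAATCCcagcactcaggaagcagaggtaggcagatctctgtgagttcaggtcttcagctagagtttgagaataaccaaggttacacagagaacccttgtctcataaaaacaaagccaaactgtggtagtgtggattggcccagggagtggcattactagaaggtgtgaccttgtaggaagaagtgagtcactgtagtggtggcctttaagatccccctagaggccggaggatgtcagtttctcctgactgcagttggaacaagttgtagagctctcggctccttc
Obox3: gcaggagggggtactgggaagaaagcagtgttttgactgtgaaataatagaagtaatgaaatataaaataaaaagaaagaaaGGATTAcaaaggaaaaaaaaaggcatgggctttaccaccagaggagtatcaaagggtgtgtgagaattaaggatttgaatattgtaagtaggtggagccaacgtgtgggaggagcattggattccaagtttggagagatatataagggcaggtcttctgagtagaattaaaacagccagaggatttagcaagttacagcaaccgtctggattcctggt
Gm21761: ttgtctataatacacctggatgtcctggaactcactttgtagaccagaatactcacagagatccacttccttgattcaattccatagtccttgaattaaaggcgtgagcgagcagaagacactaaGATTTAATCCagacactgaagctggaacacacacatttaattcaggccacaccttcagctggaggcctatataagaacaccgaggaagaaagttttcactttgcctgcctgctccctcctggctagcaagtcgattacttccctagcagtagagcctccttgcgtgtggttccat
RefSeq promoters were matched for 583 of the 814 genes called higher and 522 of the 674 called lower. GGATTA was found in 7.36% of promoters of higher genes and 5.26% of lower genes. Over the 12725 promoters of tested genes it was 5.98%, and over all 32851 promoters 7.06%. GATTNAATC was found in 0.289%, 0.150%, 0.299% and 0.268% of the same sets. TGCACAC, the motif ascribed to Zscan4c, was found in 3.32%, 3.15%, 3.91% and 4.40%. Over the 264 promoters of genes called higher in both fits, the shares were 7.58% for GGATTA, 0% for GATTNAATC and 2.65% for TGCACAC. None of these motifs was in the promoters of Usp17lb and Mcm5, which also rose, or in the 4 matched Zscan4 promoters. The list of 2-cell activation genes was taken whole, but it was drawn up with earlier results of these data known. Of the 42 promoters of its tested genes, 13 held GGATTA, 4 held GATTNAATC and 2 held TGCACAC (30.95%, 9.52% and 4.76%). These are matches of letters and not sites of binding, and many of those promoters are copies of each other.

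Several cell cycle genes rose with the score. Among 49 tested mitosis and cyclin genes 8 rose and 2 fell, and 7 of the 8 also rose over 21 libraries (Aurka, Aurkb, Ccne1, Cdk1, Cdk2, Fbxo5 and Plk1), where Mad2l1 fell. The list's median was 0.072, against -0.016 over all tested genes, of which 5.98% rose and 4.95% fell over 24 libraries. Aurka (chr2:172356190-172370535, minus strand), the kinase that matures centrosomes, was at 137 to 622 CPM in the high group (median 433) and 11.3 to 131 CPM in the low group (median 56.5). Every high library exceeded every low one, as for 23 of the 13604 tested genes. Aurka changed by 2.14 ± 0.42 (adjusted p = 0.00484) and by 2.04 over 21 libraries. Ccne1, cyclin E1, which drives entry into S phase with Cdk2, was at 375 to 1294 CPM and 35.2 to 729 CPM, a change of 2.12 ± 0.37 (adjusted p = 0.00253) and of 1.92 over 21 libraries. Fbxo5, an inhibitor of the anaphase-promoting complex, changed by 2.48 ± 0.43, and Cdk2 by 2.31 ± 0.47. Of 56 tested replication genes 8 rose and 1, Dut, fell (median 0.38), with Mcm5, Cdt1 and Prim1 called in both fits. Mcm5, a subunit of the replicative helicase, changed by 2.08 ± 0.40 (adjusted p = 0.00418) and by 2.33 over 21 libraries, and Cdt1, which loads that helicase, by 1.53 ± 0.29.

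Part of the genes that build ribosomes rose, and genes that encode ribosomal proteins did not keep a direction between the fits. Of 77 tested genes of ribosome biogenesis and the nucleolus, 21 rose and none fell (median 0.96), 12 rose over 21 libraries (median 1.32), and 6 rose in both. Polr1e, a subunit of RNA polymerase I, was at 18.05 to 125 CPM in the high group (median 85.3) and 0 to 72.7 CPM in the low group (median 16.96), a change of 3.21 ± 0.70 (adjusted p = 0.00714). Of 79 ribosomal protein genes 1 rose, Rpl3, and none fell over 24 libraries, with a median of -0.97. Over 21 libraries 16 rose and none fell, with a median of 1.18. Their summed level was 24641 to 64132 CPM in the 3 libraries rich in short transcripts, 2132 to 8701 CPM in the other 5 low libraries and 4206 to 14101 CPM in the high group. The median transcript of this list is 1059 bases long. With plate column fitted over all 24 libraries the median was also positive, at 0.82, with 73 of the 79 genes above 0. The sign of this list therefore turned both without those 3 libraries and with plate column.

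Nuclear genes of the respiratory chain fell over 24 libraries and were near 0 over 21. Of 75 tested nuclear genes 18 fell and none rose (median -1.003), whereas over 21 libraries 1 fell and 1 rose (median -0.10). Cox8a, a subunit of cytochrome c oxidase, was at 253 to 750 CPM in the high group and 411 to 3513 CPM in the low group, a change of -1.84 ± 0.44 (adjusted p = 0.01) that became -0.55 over 21 libraries (adjusted p = 0.107). Of 15 transcripts of the mitochondrial genome 7 fell and none rose (median -0.76), and none was called over 21 libraries, where the median was close to the same at -0.72.

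Among oocyte and maternal RNAs, all calls were falls. Of 75 tested genes 10 fell and none rose (median -0.30), and 4 fell over 21 libraries (median -0.65). Ybx2, an oocyte RNA-binding protein that stabilizes stored messages, fell in both fits: it was at 61.5 to 150 CPM in the high group and 80.5 to 292 CPM in the low group, a change of -1.04 ± 0.25 (adjusted p = 0.00981) and of -0.87 over 21 libraries (adjusted p = 0.0474). Npm2, Ooep and Omt2a fell over 24 libraries by 1.85 ± 0.40, by 1.61 ± 0.36 and by 1.72 ± 0.39, and none of these 3 was called over 21. Eif3i and Polr2c, outside this list, fell in both fits, by 1.14 ± 0.31 and by 1.13 ± 0.25. Of 41 genes of maternal RNA decay 3 rose and 5 fell, against 5.98% and 4.95% of all tested genes. Tob2 alone was called over 21 libraries.

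The remaining lists are read against the shares over all genes, 5.98% higher and 4.95% lower over 24 libraries and 4.14% and 0.787% over 21. Of 40 later preimplantation genes 6 rose and Pou5f1 fell (4 and 1 over 21 libraries), with Nr5a2, an orphan nuclear receptor of early embryos, at 53.1 to 293 CPM in the high group and 12.9 to 54.5 CPM in the low group (change 2.05 ± 0.35, adjusted p = 0.00247, and 1.86 over 21 libraries). Of 67 chromatin genes 6 rose and 4 fell (6 and 0 over 21 libraries), with Hdac1, a histone deacetylase, at 2.41 ± 0.49 and at 2.69 over 21 libraries. Of 46 heat shock and chaperone genes 9 rose and 1 fell (median 0.60), of which 2 rose over 21 libraries, where Ahsa1 fell. Of 36 growth arrest genes 4 rose and 1 fell, and Sesn2 was among those called in both fits. Of 26 telomere and recombination genes Terf2ip rose and was not called over 21 libraries, where Nhp2 and Wrap53 rose. Of 43 translation initiation genes 6 rose and 3 fell, and 4 and 1 over 21 libraries. Of 57 splicing genes 4 rose and 7 fell, and 4 and 0 over 21 libraries. Of 42 proteasome genes 3 rose and 2 fell, a share near that of all genes, and 1 and 0 over 21 libraries. Of 52 transcription genes 5 rose and 4 fell, and 8 and 1 over 21 libraries. None of 26 imprinted genes was called over 24 libraries (edgeR), and Gnas fell over 21.

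**Figure D5:**
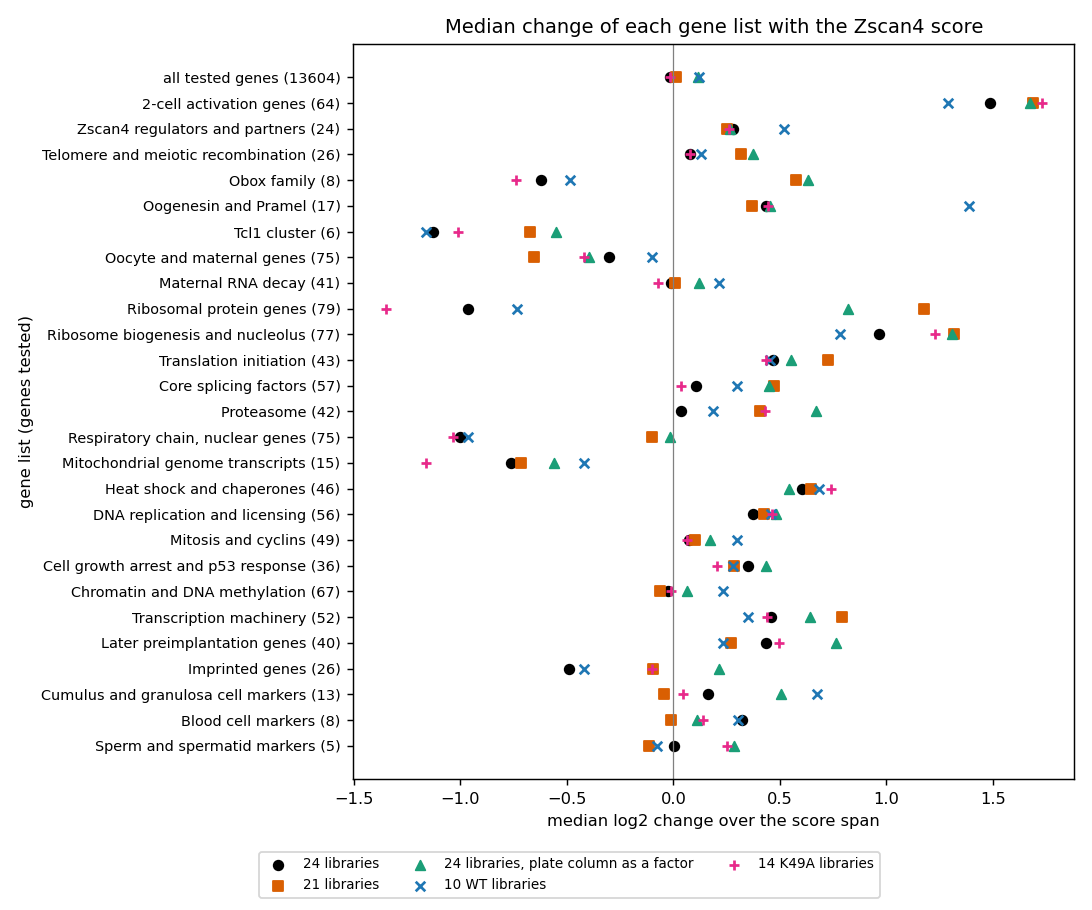
Median log2 change across the score span for each gene list and for all tested genes, from 5 fits: 24 libraries, 21 libraries without the 3 rich in short transcripts, 24 libraries with plate column as a factor, 10 WT libraries and 14 K49A libraries. 2-cell activation genes are positive in every fit, and ribosomal protein genes are negative in 3 fits and positive in the other 2.

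Genes whose level followed the score most closely over the 24 libraries, out of 7775 that averaged 10 CPM or more and carry an ordinary symbol, were Zfp566, Usp17le, Usp17lb, Ccne1, Ctsc and Herc1, with Pearson r from 0.858 to 0.888. The libraries share a plate and differ in depth, so these values are descriptions. Ctsc, the protease cathepsin C, was at 40.1 to 316 CPM in the high group and 0.559 to 32.6 CPM in the low group, which do not overlap. Such a separation with the high group above held for 23 of 13604 tested genes.

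The relation was next examined in separate embryos. The 14 K49A libraries alone called 33 genes higher (0.243% of 13604) and none lower, and the 10 WT libraries called none (edgeR, 2370 genes at an unadjusted p under 0.05). These counts depend on the low-count filter. With filters drawn from their own libraries, K49A had 37 higher and 0 lower of 8006 genes, and WT 101 and 305 of 6875. All 33 had the same sign in the WT embryos, where 72.1% of all genes that were positive in K49A did. Of the 33, 21 had an unadjusted p under 0.05 in WT, against 16.9% of the genes positive in K49A. Those 21 included Usp17lb (5.46 in K49A and 2.69 in WT), Gm8994 (2.91 and 2.74), Cpsf6 (2.42 and 3.17), Mcm5 (2.49 and 1.65) and Arg1 (4.63 and 3.01). Others of the 33 changed little in WT, such as B4galnt4 (7.11 in K49A and 0.686 in WT), Idua (3.26 and 0.701), Noa1 (2.44 and 0.622) and Syncrip (2.35 and 0.645). A test of whether the slope differed between genotypes called 0 genes (edgeR, 540 at an unadjusted p under 0.05, 3.97%). It was not run on the 16 extreme libraries, where 1 K49A embryo is high and the planned minimum was 2 per group and genotype. In the 8 libraries between the groups, which the comparison of 8 with 8 did not use, no gene was called (edgeR, 855 at an unadjusted p under 0.05). Of the 771 genes higher at an unadjusted p under 0.05 in that comparison, 82.4% had the same sign among the 8, against 62.1% of all higher genes. Of the lower genes tested there it was 56.9%, against 53.8%. Among the 8, K49A 24 scored 5.08 and the others 6.13 to 7.15, so these signs rest largely on that library. It also held the fewest counts of the 8 (3107009). Genes are not independent of each other, so the shares carry no p.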

How the data were processed

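Single embryos were processed by Smart-seq2 and sequenced on an Illumina NovaSeq, per the labels' protocols. RSEM 1.3.3, STAR 2.7.8a, cutadapt 2.3 and FastQC 0.11.8 are listed, with builds GRCm38 and mm10, per the submitters' processing notes. The authors deposited expected counts per gene, which held whole numbers and were rounded with no value changed, and TPM per gene, which was used for an alternative score. Whether counting used strand was not found in the sources used here. The 5 transgene rows held 0 counts and were left out, as were the 9 Zscan4 rows from every test. The members and gene lists were chosen with earlier results of these data known. The 8 against 8 comparison used edgeR 4.0.16 (TMM, robust quasi-likelihood, default low-count filter) in R 4.3.3, with WT/K49A as covariate. limma 3.58.1 and DESeq2 1.42.0 were alternatives (DESeq2 gave no adjusted p for 10492 genes). Per-library CPM in the text was TMM-scaled, and for Zscan4 rows plain. Positions and lengths came from GENCODE M21, GRCm38. Called means an adjusted p under 0.05.

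Named genes were, per direction, up to 12 called genes with a standard symbol and at least 10 CPM by size of change (with fewer than 12 called, all of them, filled to 6 by smallest p), up to 4 of each list by smallest p and all tested regulators; other list members were named after their values were seen. The 10% limit on short transcripts, the fits on 21 libraries, on each genotype and with short-transcript share, and all alternatives of the score fit were chosen after seeing the data. Replicate numbers are shared by some WT and K49A libraries but do not pair them. Fits on fewer libraries first drew their own low-count filter; they were then refitted on the genes of the full fit, and both versions are given with the alternatives. The labels do not say which embryos share parents, so each p reflects only how these embryos vary.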

Additional observations from a re-analysis of the deposited data

Results flagged for a closer look

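Of 226 checks of single libraries within the groups of 8, 21 stood apart by Dixon's test, where chance gives about 1 in 20, and the checks share libraries. In the high group 11 of these were WT 20, which was low for Fam83d (6.52 CPM, the others 113 to 287), Trub2 (1.00, the others 21.7 to 127), Ddx47 (13.5), Dnajb11 (1.00), Grwd1 (20.6), Obox3 (6.52), Polr1e (18.05), Pramel4 (1.504), Psmd13 (0.501), Psmd5 (70.2) and Zfp42 (12.03 CPM). WT 15 had 35.0 CPM of Gm8994 (the others 175 to 694). WT 21 had 194 CPM of Psma1 (the others 62.9 to 97.9) and 7.74% of counts on short transcripts (the others 3.87% to 5.55%).

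In the low group K49A 4, with the lowest score, was low for Fam83d (0.280 CPM), Hdac1 (4.47), Obox6 (0.839, the others 39.9 to 470) and Plk3 (0 CPM). K49A 9 was high for Cpsf6 (109 CPM, the others 7.43 to 27.2) and Cdt1 (171 CPM, the others 41.9 to 68.6). WT 9 had 0.256 CPM of Gm11758, which is 1 count, where the others had 0.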

How the results depend on the processing

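The comparison of 8 with 8 called 1 gene higher and 0 lower. It called 1 and 0 again with RLE scaling, no low-count filter, Zscan4 rows in the library size, no genotype term, the library total or detected genes as covariate, or the summed Zscan4 score. It called 0 and 0 with a stricter filter, plate column, the TPM score, short-transcript share as covariate, WT libraries alone or without the 3 libraries rich in short transcripts. DESeq2 called 124 and 135, limma 67 and 22, and the score over 24 libraries 814 and 674. Leaving out 1 library gave 0 to 4 higher and 0 lower.

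The score fit gave 1346 and 1175 with no filter, 225 and 59 with library total, 562 and 57 with detected genes, 1058 and 225 with short-transcript share, 597 and 286 by limma and 1422 and 1176 by DESeq2. It gave 2 and 0 with plate column, 563 and 107 without the 3 libraries, 0 and 0 over WT and 33 and 0 over K49A. Leaving out 1 library gave 268 to 981 higher and 16 to 802 lower. RLE, a stricter filter, no genotype term, plate row and the TPM score stayed within 1.5 times. Plate row took the place of the genotype term, because no row held both genotypes. Of the values of single named genes under these alternatives, 3313 kept direction and side of the threshold, 986 lost the call and 3 reversed. The losses were uneven among settings. Of the 101 named genes, 100 lost the call with plate column, 101 over WT and 95 over K49A. With the library total 65 lost it, without WT 19 64, and without the 3 libraries 56. Causes were not tested.

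Replicate numbers did not pair the samples: same-numbered WT and K49A libraries had correlated deviations of -0.222 to 0.0446, and none matched its own number best. With a replicate block the comparison of 8 with 8 (WT 8 and WT 15 against K49A 8 and K49A 15) called 821 and 927, where group and genotype cannot be told apart and both low libraries are rich in short transcripts, and the score fit (12 libraries) 0 and 0, as it did in those libraries without the block. Under that block Obox8 (-0.0725), Pramel4 (-0.347) and Plk3 (-0.141) reversed.

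Fits on fewer libraries were first run with their own low-count filter, which was replaced after those results were seen. With it the score fit called 101 and 305 of 6875 genes over WT and 37 and 0 of 8006 over K49A, the blocked comparison 378 and 587 of 11850, and the fit with no genotype term 0 and 0 of 11918. Over the 8 libraries between the groups it called 0 and 0 of 8537, and without WT 19 the comparison of 8 with 8 called 1 and 0 of 16656. The 3 libraries rich in short transcripts are also the shallowest of the 24; an effect of depth by group was not tested.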

Other observations

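Of the 24 libraries below the limits on depth and detected genes, 5 held more than 100000 counts. WT 5, with 1064553 counts but 10323 genes, had a Zscan4 score of 5.62. K49A 22, K49A 14, WT 10 and K49A 3 held 105627 to 555702 counts and had scores of 1.51 to 2.52, with 1, 7, 44 and 9 counts on the Zscan4 rows.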
